A study of Homo sapiens with 6 samples.

Results

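Guanylate-binding proteins (GBPs) and IRF1 were examined in U251 cells, an established human glioblastoma line. The genes were GBP1, GBP2, GBP3, GBP4, GBP5 and IRF1, taken by symbol from a table of 23002 genes, and all 6 were found there. The cells carried a lentiviral short hairpin RNA, either a non-targeting control (sh-NC, 3 samples) or one directed at TRAF2 (sh-TRAF2, 3 samples). The paper obtained its stable lines by puromycin selection, and whether the sequenced cells were kept under puromycin is not given. No cytokine or other agent is named for either group. Which of the TRAF2 hairpins was sequenced, and whether all sh-TRAF2 samples carried the same one, is not given in the sources used here. The design text calls the samples biological replicates, but nothing says that they came from separate transductions. The p-values therefore measure the spread between samples that may come from a single line per group.

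GBPs are large GTPases that interferon induces in most cell types. Several of them carry a lipid anchor at the C terminus and assemble on the membranes of intracellular parasites and bacteria, which is why the family is annotated to defense against protozoa. IRF1 is a transcription factor that is itself induced by interferon and NF-kappaB, and it is a known activator of GBP transcription, while IRF2 binds the same DNA element and is known mainly as a repressor. Of the 6 genes, GBP1, GBP2 and GBP4 belonged to the deposited annotation term for defense against protozoa, whereas GBP3, GBP5 and IRF1 did not.

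Messenger RNA was given as FPKM, fragments per kilobase of transcript scaled to sequencing depth. Because FPKM is per length, levels of different genes can be set beside each other. Reads behind the values were recovered from their step size and came to between 33999558 and 36823562 per sample, so depth differed little between samples. TRAF2, the targeted gene, had 15.1, 18.4 and 15.3 FPKM in sh-NC replicates 1, 2 and 3 and 3.26, 3.22 and 3.33 FPKM in sh-TRAF2 replicates 1, 2 and 3, lower by 79.9% (adjusted p = 1.16e-06, limma). Of the 9 glioma and astroglial markers in the table, 8 had a mean FPKM of at least 0.5, led by VIM at 1410 FPKM, while S100B did not reach that level. Of 10 listed markers of blood cells and microglia, cell types also known to express GBPs, 4 had values here and 0 of these reached 0.5 FPKM. The summed level of these 4 was 0.556 to 0.883 FPKM in sh-NC and 0.385 to 0.752 FPKM in sh-TRAF2, with CD14 the highest at a mean of 0.474 FPKM. The summed levels of the other marker lists moved between the groups without overlap. The glioma and astroglial sum was 1660 to 1750 FPKM in sh-NC and 2010 to 2060 FPKM in sh-TRAF2. The epithelial sum was 17.2 to 19.4 FPKM and then 27.9 to 28.8 FPKM, with 2 of 5 markers at 0.5 FPKM or more, led by KRT18, and EPCAM and CDH1 below. The endothelial sum was 3.33 to 3.4 FPKM and then 3.66 to 4.31 FPKM, with KDR the 1 of 4 markers that reached 0.5 FPKM. The neuronal sum was lower in sh-TRAF2, at 15.7 to 16.9 FPKM against 25.4 to 28.7 FPKM in sh-NC, with 2 of 5 markers at 0.5 FPKM or more, led by SYT1, and RBFOX3 below. The part of these markers in the changes described here was not tested.

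The sequences below show the interferon-responsive elements near the start sites of these genes. They were read from the RefSeq promoter table (GRCh38.p14), whose windows run from 250 bases before to 50 bases after each start. It held 4 of the 6 genes, and GBP2 and GBP5 had no entry. Capitals mark the match to the core of the interferon-stimulated response element (ISRE), which IRF proteins bind, and the letters searched, on both strands, were GAAA, any 2 bases and GAAA again. All matches here are on the strand opposite to the gene.
GBP1, -137 to -108 from the start, chr1:89065316-89065345, minus strand: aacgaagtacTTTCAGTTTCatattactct
GBP3, -8 to 22, chr1:89022845-89022874, minus strand: aaagaagtacTTTCAGTTTCattaggctct
GBP4, -14 to 16, chr1:89198927-89198956, minus strand: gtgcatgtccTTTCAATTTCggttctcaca
All 3 of these GBP windows held the ISRE core, against 3.57% of the 35116 promoters in the table. The windows of the related GBP6 and GBP7, searched in the same way, did not hold it. GBP1 and GBP3 shared the same 10 bases within a stretch that aligned over 160 columns with 122 identical bases (76.2%). The GBP1 match lay at -127 to -118 from the RefSeq start, and the GENCODE start lies 152 bases away, upstream of the match. The distance from a start thus depends on the annotation, and the 2 annotations differed by 28 bases for GBP3, 10 for GBP4 and 25 for IRF1.

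The gamma-activated sequence (GAS), an element of interferon gamma responsive promoters, was searched as TTCNNNGAA, and the NF-kappaB site as the kappaB consensus, each on both strands. GAS reads the same on both strands, and none of the matches shown overlaps another. GAS was found in 7.66% and the kappaB consensus in 11.3% of all promoters of this length. Capitals mark GAS in the GBP3 line, the kappaB consensus in the GBP4 line, and both, in that order, in the IRF1 line.
GBP3, chr1:89022862-89022891, minus strand: actgagtcacTTCCTTGAAagaagtacttt
GBP4, chr1:89198968-89198997, minus strand: ttgataaacaGGAAAATCCCcaacagtcaa
IRF1, -250 to -31, chr5:132490804-132491023, minus strand: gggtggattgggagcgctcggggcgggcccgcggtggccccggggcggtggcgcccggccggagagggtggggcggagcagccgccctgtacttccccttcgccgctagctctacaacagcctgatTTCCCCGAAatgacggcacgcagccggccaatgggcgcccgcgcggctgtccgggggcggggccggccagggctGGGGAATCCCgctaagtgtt
The IRF1 window held GAS at -124 to -116 and a kappaB match at -50 to -41, and the ISRE letters were not in it. GC content also separated the windows, at 32% for GBP3, 38.7% for GBP1 and 43.3% for GBP4 against 73.7% for IRF1, beside a median of 58.7% over all promoters. A match is a description of the letters and was not tested as a binding site in these cells.

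**Figure D1:**
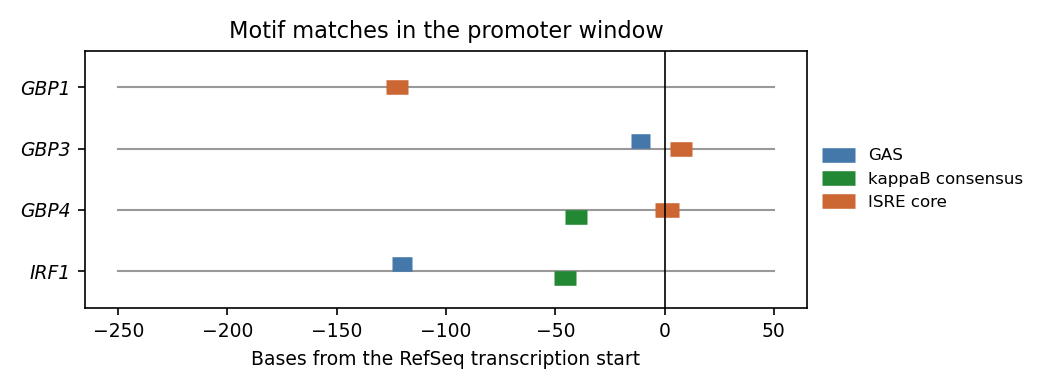
Positions of motif matches in the 4 promoter windows, in bases from the RefSeq transcription start (x axis); each row is a gene and each coloured block a match to the ISRE core, GAS or the kappaB consensus. The GBP1, GBP3 and GBP4 windows each carry an ISRE core, and the IRF1 window carries GAS and kappaB matches without one.

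The 5 GBP genes lie in a cluster on the minus strand of chromosome 1 (GRCh38, GENCODE 29) within 266 kb, with GBP7 (chr1:89131751-89176040, minus strand) overlapping GBP2 and lying before GBP4. In ascending position these are GBP3 (chr1:89006666-89022894), GBP1 (chr1:89052319-89065360), GBP2 (chr1:89106132-89150456), GBP4 (chr1:89181148-89198932) and GBP5 (chr1:89258950-89272804). IRF1 lies on the minus strand of chromosome 5 (chr5:132481609-132490798). The coding sequences of GBP1 and GBP3 were 90.6% identical at the nucleotide level, those of GBP1 and GBP2 82.4%, those of GBP1 and GBP5 76.4% and those of GBP1 and GBP4 64.5%. Reads could therefore be split between paralogs. Of all 50-base windows of the annotated transcripts, 9.62% for GBP1, 10.2% for GBP2, 4.76% for GBP3, 4.03% for GBP4, 0.396% for GBP5 and 2.25% for IRF1 also occurred in another gene. The gene that shared the most windows was a GBP gene for GBP2 and GBP3 and a GBP pseudogene for GBP1. For GBP4, GBP5 and IRF1 it was not a GBP, so these shares are not all with paralogs. How the counting treated such reads, and whether it used strand, is not given in the sources used here.

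Knockdown of TRAF2 was accompanied by higher mRNA of GBP1, GBP2, GBP3 and GBP5, between 1.64-fold and 2.09-fold, whereas IRF1 was not higher. GBP1 moved the most and was the one gene of the 6 past both thresholds of the study, an absolute log2 fold change above 1 and an adjusted p under 0.05. These thresholds called 0.986% of all 11870 tested genes higher and 0.733% lower. At an adjusted p under 0.05 without the fold threshold, 4 of the 5 tested genes were higher and 0 lower, against 23.7% of all tested genes higher and 20.9% lower (limma). The groups did not overlap for the same 4 genes, with every sh-TRAF2 sample above every sh-NC sample, which was so for 29% of all tested genes (55.5% in either direction). The median log2 fold change of the 5 tested genes was 0.80, beside 0.019 over all tested genes. Fold changes are on the log2(FPKM + 0.1) scale, where the added 0.1 shrinks the changes of genes with few reads.

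GBP1, the interferon-induced GTPase that forms the first coat on bacterial membranes, had 20.8, 16.6 and 19.9 FPKM in sh-NC replicates 1, 2 and 3, and 35.6, 39.7 and 45.0 FPKM in sh-TRAF2 replicates 1, 2 and 3. The lowest sh-TRAF2 sample lay well above the highest sh-NC sample. The mean FPKM rose from 19.1 ± 2.24 (SD, n = 3) to 40.1 ± 4.71 (SD, n = 3), resting on 1795 to 4780 reads per sample. The log2 fold change was 1.07 with a 95% interval of 0.83 to 1.3 (adjusted p = 0.000117, limma), and 0.901% of the tested genes had a larger one. The interval reaches below the fold threshold of 1, so the call rests on the point estimate. Without sh-NC replicate 2 the log2 fold change was 0.97, without sh-TRAF2 replicate 3 it was 0.98, and without both it was 0.88, each of which ends the call at the fold threshold with the adjusted p still under 0.05.

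GBP3, the closest paralog of GBP1, had 20.4, 17.2 and 19.2 FPKM in the sh-NC replicates and 32.4, 32.0 and 34.7 FPKM in the sh-TRAF2 replicates. The groups did not overlap, and the sh-TRAF2 samples lay close together. The mean FPKM rose from 18.9 ± 1.62 (SD, n = 3) to 33.0 ± 1.44 (SD, n = 3), a log2 fold change of 0.80 with an interval of 0.65 to 0.95 (adjusted p = 5.43e-05, limma), the smallest adjusted p of the 6 genes. The interval ends below the fold threshold.

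GBP5, which is known as a promoter of inflammasome assembly, had 6.35, 5.26 and 6.40 FPKM in the sh-NC replicates and 9.88, 11.4 and 13.3 FPKM in the sh-TRAF2 replicates. All sh-TRAF2 samples again lay above all sh-NC samples. The mean FPKM rose from 6.0 ± 0.647 (SD, n = 3) to 11.5 ± 1.73 (SD, n = 3), and the log2 fold change was 0.93 with an interval of 0.66 to 1.19 (adjusted p = 0.000404, limma). Without sh-TRAF2 replicate 1 it was 1.03, which passes the fold threshold. A gene on the other strand overlaps GBP5 too, so that some of its reads may not be its own.

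GBP2, a prenylated GTPase that acts together with GBP1 on pathogen membranes, had 6.98, 5.55 and 6.38 FPKM in the sh-NC replicates and 8.81, 10.5 and 12.1 FPKM in the sh-TRAF2 replicates. The groups were apart by less than for the other GBPs that passed. The mean FPKM rose from 6.3 ± 0.717 (SD, n = 3) to 10.5 ± 1.64 (SD, n = 3), a log2 fold change of 0.72 with an interval of 0.44 to 0.99 (adjusted p = 0.00185, limma). GBP2 shares its strand and 573 of its 50-base windows with GBP7. GBP7 had 0 reads in 5 samples and 0.0117 FPKM in sh-TRAF2 replicate 3, where its read count is unknown.

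GBP4 was hardly expressed. It had 15, 6 and 9 reads in the sh-NC replicates and 10, 28 and 54 reads in the sh-TRAF2 replicates, or 0.0686, 0.0273 and 0.0394 FPKM against 0.0468, 0.133 and 0.251 FPKM. The groups overlapped, since sh-TRAF2 replicate 1 lay below sh-NC replicate 1 (exact permutation test, two-sided p = 0.2). GBP4 did not reach the mean of 0.5 FPKM needed for the fit. Its log2 difference of 0.67 turned on the pseudocount, and with no filter on low values the adjusted p was 0.216 (limma). An antisense gene overlaps it, so that its few reads may not all be its own. The related GBP6 had 2, 2 and 1 reads in sh-NC and 10, 6 and 12 reads in sh-TRAF2, a depth-corrected ratio of 5.83 with an exact 95% interval of 2.22 to 19.3 that covers counting error only.

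IRF1 stood apart from the GBPs in level and in response. It had 188, 170 and 178 FPKM in the sh-NC replicates and 149, 168 and 176 FPKM in the sh-TRAF2 replicates. The groups overlapped, with sh-TRAF2 replicate 1 the lowest of all samples (exact permutation test, two-sided p = 0.2). Mean levels were 179 ± 9.11 FPKM (SD, n = 3) in the control line and 164 ± 14.1 FPKM (SD, n = 3) after knockdown. This is a log2 fold change of -0.12 with an interval of -0.27 to 0.02 (adjusted p = 0.152, limma), so that the upper end of the interval lies far below the change of any of the 4 GBPs that rose. With quantile normalization it was -0.19 (adjusted p = 0.0394, limma), and without both sh-NC replicate 2 and sh-TRAF2 replicate 3 it was -0.21 (adjusted p = 0.0452, limma), 2 settings that place IRF1 among the lower genes. IRF1 was among the more abundant mRNAs, with 2.73% of the tested genes above its mean FPKM over the 6 samples. Genes on the other strand overlap it. One of these, IRF1-AS1, had 182 to 281 reads per sample, against 18492 to 23939 for IRF1.

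**Figure D2:**
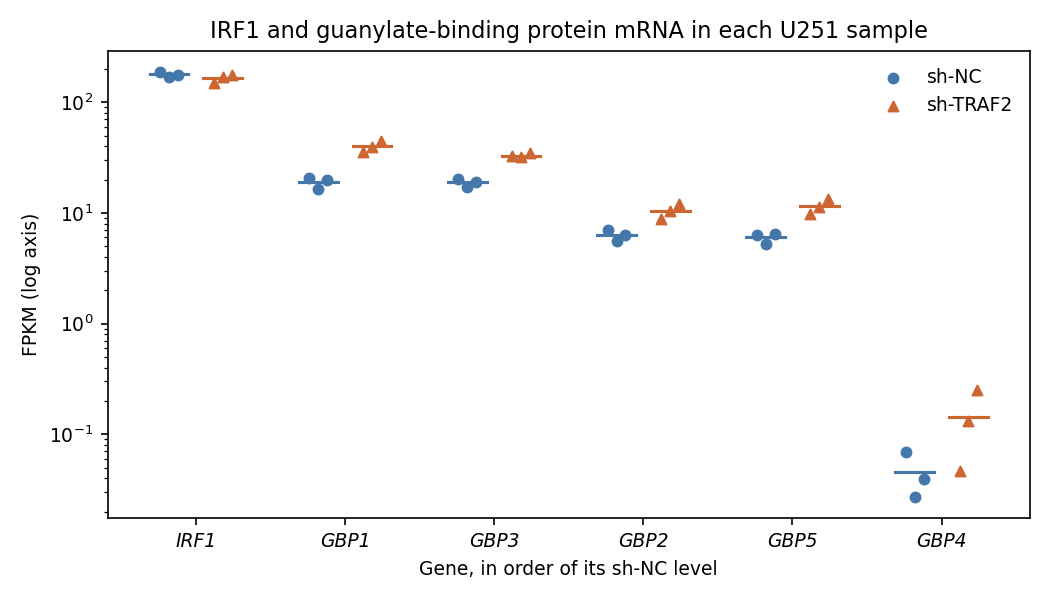
FPKM of IRF1 and the 5 GBP genes (x axis, in order of the sh-NC mean) in each of the 6 samples, on a log axis; circles are sh-NC and triangles sh-TRAF2 samples, and lines mark group means. The sh-TRAF2 samples of GBP1, GBP3, GBP2 and GBP5 all lie above the sh-NC samples, while IRF1 and GBP4 overlap.

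In sh-NC the order of levels was IRF1, then GBP1 and GBP3, then GBP2 and GBP5, then GBP4. GBP1 and GBP3 did not differ beyond their spread there, nor did GBP2 and GBP5. In sh-TRAF2 every GBP1 sample, from 35.6 to 45.0 FPKM, lay above every GBP3 sample, from 32.0 to 34.7 FPKM. The 5 GBP genes together gave 54.6, 44.6 and 52.0 FPKM in the sh-NC replicates and 86.8, 93.7 and 105 FPKM in the sh-TRAF2 replicates. GBP1 supplied 37.2 to 38.4% of that sum in sh-NC and 41.1 to 42.7% in sh-TRAF2, while the GBP2 share was 12.3 to 12.8% and then 10.2 to 11.5%.

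Ratios within a sample do not depend on its depth, and 10 pairs of genes were compared. The GBP1 to GBP3 ratio was 1.02, 0.964 and 1.04 in sh-NC and 1.1, 1.24 and 1.3 in sh-TRAF2. GBP1 thus rose more than its closest paralog in every sample comparison, by 0.26 on the log2 scale. GBP1 also moved more than GBP2 by 0.34 and more than GBP5 by 0.13, and GBP5 more than GBP2 by 0.21, each with groups that did not overlap. GBP3 against GBP2 (difference 0.08) and GBP3 against GBP5 (difference -0.13) overlapped, with sample differences from -0.11 to 0.33 and from -0.33 to 0.13. The GBP1 to IRF1 ratio was 0.111, 0.0975 and 0.112 in sh-NC and 0.24, 0.236 and 0.255 in sh-TRAF2, a shift of 1.19 on the log2 scale. The shifts against IRF1 were 1.06 for GBP5, 0.93 for GBP3 and 0.85 for GBP2, all with groups apart. With 3 samples against 3 the exact permutation test cannot go below 0.1, which was reached by the 8 pairs that separated (0.125 after adjustment over the 10 pairs), so none passes 0.05.

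**Figure D3:**
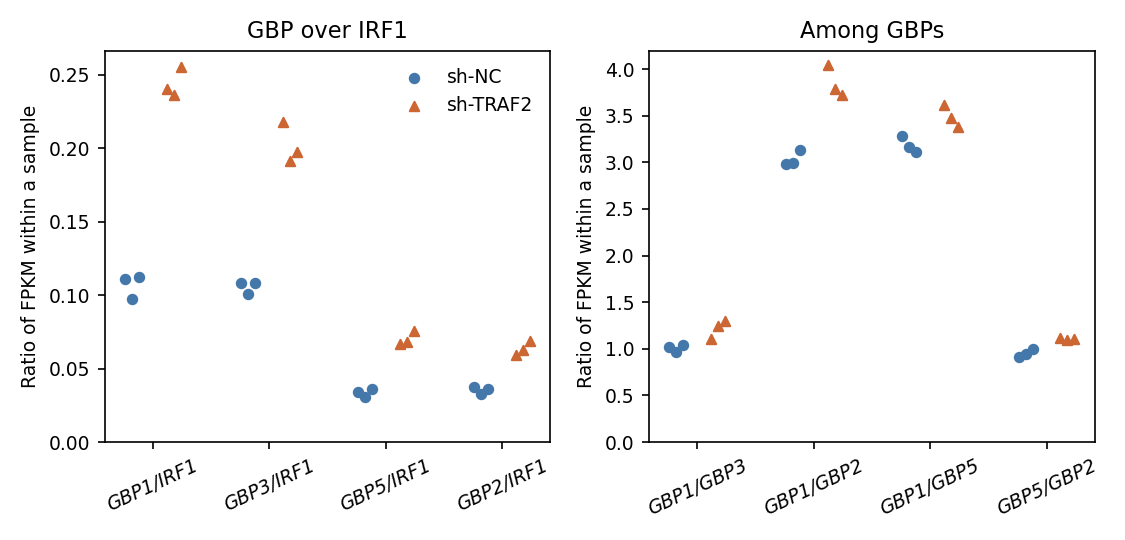
Ratio of FPKM between 2 genes within each sample (y axis, from 0) for GBPs over IRF1 (left) and among GBPs (right); circles are sh-NC and triangles sh-TRAF2 samples. GBP1 over IRF1 runs from 0.0975 to 0.112 in sh-NC and from 0.236 to 0.255 in sh-TRAF2, and the shifts among GBPs are smaller.

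One library of each group lay at an edge for all 6 genes. sh-NC replicate 2 was the lowest sh-NC sample and sh-TRAF2 replicate 3 the highest sh-TRAF2 sample for each of them, which held for 15.4% of all tested genes and for 22 of 26 tested type I interferon effectors. Without these 2 libraries the log2 fold changes were 0.52 for GBP2, 0.70 for GBP3 and 0.73 for GBP5, with adjusted p from 0.000541 to 0.00982 (limma), and 0 of the 6 genes passed both thresholds.

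The other genes of the pathway were described from lists, beginning with the ligands. At an adjusted p under 0.05, 23.7% of all tested genes were higher and 20.9% lower (limma), the shares to set beside each list count. IFNB1, which encodes interferon beta, had 0.87, 0.899 and 0.641 FPKM in sh-NC and 1.44, 1.95 and 1.94 FPKM in sh-TRAF2, a log2 fold change of 1.05 (adjusted p = 0.00144, limma). Its level was low, at a mean of 24.3 reads in sh-NC. IFNG, the ligand best known for GBP induction, was not analysed here. Of the 7 tested ligands and receptors, 1 was higher and 3 lower at an adjusted p under 0.05, with a median log2 fold change of -0.07. The interferon gamma receptor chains IFNGR1 (log2 fold change -0.07) and IFNGR2 (0.04) did not pass, nor did IFNAR1 (0.08). The chains IFNAR2 (-0.30) and IL10RB (-0.37) were lower, as was the epithelial interferon gene IFNE (-0.82) at a mean of 37 reads in sh-NC.

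Among 16 tested JAK-STAT genes, 5 were higher and 3 lower, against 23.7% and 20.9% of all tested genes. The list median was a log2 fold change of 0. The kinase JAK1 was lower by 0.31 on the log2 scale, and JAK2 (log2 fold change -0.19) did not pass. USP18, an interferon-induced inhibitor of receptor signaling, was called higher (1.37). PIAS1, an inhibitor of JAK-STAT signaling, was called lower, from 4.0 to 1.93 FPKM (-1.01, adjusted p = 3.97e-05, limma), and STAT3 was higher (0.27).

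Of the 9 tested IRF genes and cofactors, 3 were higher and 2 lower, with a median of 0.05. IRF2, the known counterpart of IRF1, had 3.37, 3.45 and 3.38 FPKM in sh-NC and 1.56, 1.6 and 1.77 FPKM in sh-TRAF2. These groups were far apart relative to their spread, at a log2 fold change of -1.01 (adjusted p = 4.72e-05, limma), and IRF2 was called lower. IRF2BPL (0.23) and BATF3 (0.39) were higher. The 95% intervals of IRF2 and PIAS1, -1.19 to -0.82 and -1.19 to -0.84, include changes smaller than the fold threshold. Both calls thus rest on the point estimates. IRF1 is counted in this list too. The level of IRF1 exceeded that of IRF2 in every sample of both groups.

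GBP activity is also known to depend on lipid anchoring. In the prenylation and CaaX processing list 2 of 5 tested genes were lower and 0 higher, against 20.9% of all tested genes lower. The list median was a log2 fold change of -0.01. The tested genes for the enzymes that attach the anchor were among the 3 that did not pass. ICMT, which methylates prenylated C termini, had 22.8, 20.8 and 21 FPKM in sh-NC and 13, 13.2 and 13.3 FPKM in sh-TRAF2, a log2 fold change of -0.70 (adjusted p = 2.53e-05, limma). The protease ZMPSTE24, known for prelamin A processing, was lower as well (-0.43), whereas RCE1, the protease for most prenylated proteins (0.08), did not pass. Of 7 tested related GTPases, MX1 (1.03) and MX2 (1.15) were called higher and the endoplasmic reticulum GTPase ATL3 was lower (-0.27). Of 14 tested GBP partners at pathogen membranes, 3 were higher and 2 lower, with ISG15 called higher (1.11), the autophagy receptor CALCOCO2 higher (0.22) and the autophagy receptor SQSTM1 lower (-0.33).

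Of 23 tested targets of interferon gamma or IRF1, 10 were higher and 2 lower, with a median log2 fold change of 0.19. The chemokine gene CXCL10 was called higher, with 6.79, 2.9 and 9.59 FPKM in sh-NC and 14.8, 24.8 and 30.8 FPKM in sh-TRAF2 (1.95, adjusted p = 0.00573, limma). CXCL11 (0.95), the peptide transporter TAP1 (0.56) and CD274, which encodes PD-L1 (0.52), were higher. Of 26 tested effectors of type I interferon, 23 were higher and 0 lower, 9 of them past the fold threshold, with a median of 0.77. These included IFIT1 (1.16), IFI6 (1.12), OASL (1.02), RSAD2 (1.20), IFITM1 (1.60) and OAS3 (0.88), and XAF1 (1.19) passed with groups that overlapped. MX1, MX2 and ISG15 are counted in this list too. The summed level of the list was 764 to 1050 FPKM in sh-NC and 1300 to 1710 FPKM in sh-TRAF2. Without the 2 edge libraries the median was 0.49.

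The NF-kappaB list, whose pathway TRAF2 serves as an adaptor, was mixed, with 4 of 14 tested genes higher, 5 lower and 0 past the fold threshold. NFKB2, the noncanonical subunit, was higher (0.38), and the kinase genes CHUK (-0.42) and MAP3K7 (-0.34) were lower. In the term for defense against protozoa 8 of 18 genes could be tested, of which 5 were higher, 1 lower and 1, GBP1, called. Beside GBP1 and GBP2 these were BPGM (0.42), HRAS (0.27) and IL4R (0.27), with LYST lower (-0.25) and BCL3 (-0.04) and MYD88 (0.05) not passing. The other 10 genes of the term were below the filter, GBP4, GBP6 and GBP7 among them, together with BATF2, CCDC88B, CLEC7A, IL12B, IRF4, IRF8 and SLC11A1.

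**Figure D4:**
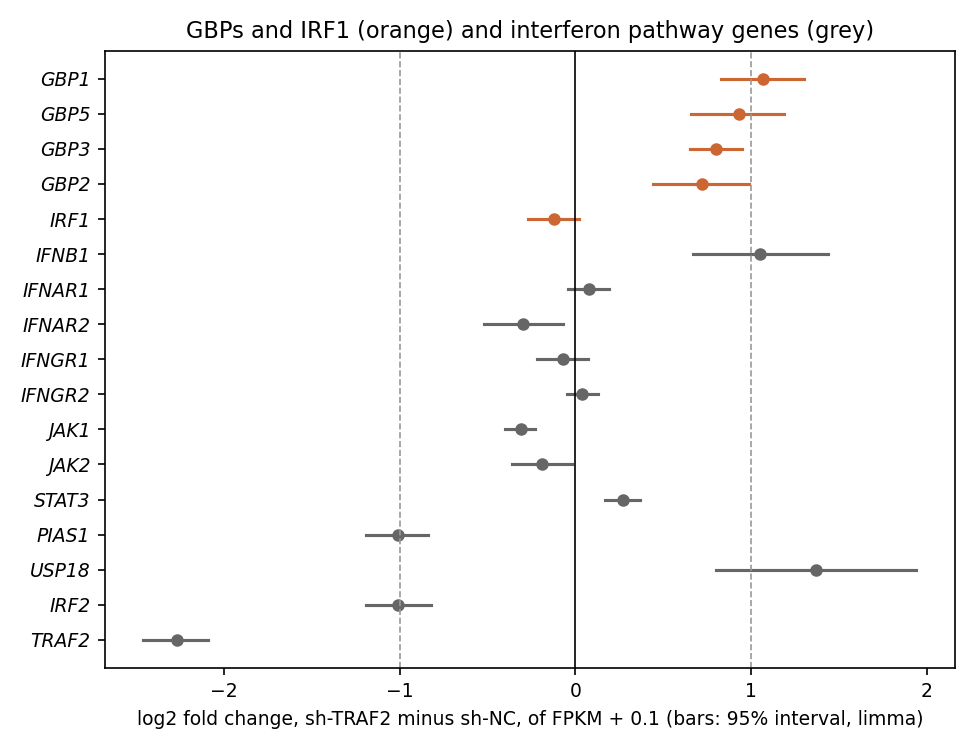
Log2 fold change of FPKM + 0.1, sh-TRAF2 minus sh-NC (x axis), with 95% intervals from limma, for tested GBPs and IRF1 (orange) and interferon pathway genes (grey); dashed lines mark the fold threshold of 1 in each direction. GBP1 is at 1.07 and IRF1 at -0.12, with both IRF2 and PIAS1 at -1.01.

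Matches to part of a TRAF2 hairpin are given for the 6 genes and for some others picked by name. The share of lower genes with a match was not counted. The heptamer ATTCCAC spans positions 10 to 16 in the target of the hairpin named sh-TRAF2#1, and it was chosen with earlier results of these data known. In the longest annotated 3′UTR it occurred once in IRF2, JAK1 and GBP2 and 2 times in PIAS1 and ICMT, and it was not found in GBP1, GBP3, GBP4, GBP5, IRF1, IFNB1 or ZMPSTE24. Of 10607 tested genes with a 3′UTR, 11.6% held it, and 0 of the 6 genes held the whole hairpin target. Its part in the levels was not tested.

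The genes whose levels were most like GBP1 over the 6 samples, by Pearson's r of log2 values, were SLC25A4 (0.9996), APEH, MPZL3, EIF2B1 and RPL11. GBP5 ranked 7 by the same measure, GBP3 37 and GBP2 127, while r with IRF1 was -0.386. For IRF1 they included STK11IP (0.9948), DVL2, C3orf80 and PABIR3, none of which passed the test between groups. These are descriptions over 6 samples in 2 groups, so that a shared difference between groups alone gives a high r.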

How the data were processed

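Messenger RNA from 3 sh-NC and 3 sh-TRAF2 U251 samples was sequenced by OE Biotech. The authors deposited FPKM values per gene and sample, and their columns sum to 349408 to 353563. The submitters' processing notes name HISAT2, HTSeq, R 3.2.0 and DESeq2 without roles. The genome build and annotation are not given in the sources used here.

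Values were taken as log2(FPKM + 0.1) and genes with a mean FPKM under 0.5 were left out. Groups were compared in limma 3.58.1 (R 4.3.3, two-sided, eBayes with the trend option), and p-values were adjusted over 11870 genes by Benjamini-Hochberg. Reads were recovered from FPKM steps as the smallest whole counts of each gene. That 100% of values came out whole within 0.001 follows from this search and is no separate check. A factor shared by all counts of a gene would go unseen. For 2643 genes with reads in 1 sample the count is unknown. The fits were tested on simulated data. All genes named come from the 6 genes, TRAF2, the lists (called genes and the 3 smallest adjusted p of each), a set of interferon genes fixed by name, the protozoan defense term and the 5 nearest genes by r. IRF1-AS1 and the other overlapping genes were added after values were seen. Of the genes this rule selects, 2 are not reported here. The genes and lists were chosen with earlier results of these data known. Alternatives were another pseudocount, filter, scaling, block, variance model, reads with limma-voom, no fold threshold and each sample left out. Sequences were read with Python 3.11.15 and Biopython 1.88.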

Additional observations from a re-analysis of the deposited data

How the results depend on the processing

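GBP1, GBP2, GBP3 and GBP5 stayed higher at an adjusted p under 0.05 (limma) in all 16 alternative settings, with log2 fold changes of 0.88 to 1.15, 0.52 to 0.83, 0.70 to 0.86 and 0.73 to 1.03. IRF1 ran from -0.21 to -0.05, and it passed at an adjusted p under 0.05 with quantile normalization (-0.19) and without both sh-NC replicate 2 and sh-TRAF2 replicate 3 (-0.21), where the count of lower genes among the 6 became 1. The last setting was chosen after seeing the data. GBP4 was 0.13 with a pseudocount of 1, 1.29 with 0.01 and 1.43 with limma-voom on recovered reads (adjusted p = 0.0827). The count of the 6 genes called higher was 4 with no fold threshold, 0 to 2 when 1 sample was left out and 0 without both named samples. Over all genes, 46 were called higher and 41 lower with a pseudocount of 1, 239 and 174 with limma-voom, and 2818 and 2479 with no fold threshold.

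List medians moved by more than their spread in few settings. Interferon ligands and receptors were at -0.02 with no filter, with a mean FPKM of at least 1 and with limma-voom. When 1 sample was left out, medians ran from -0.05 to 0.09 for JAK-STAT genes, 0.0 to 0.09 for IRF genes, -0.15 to -0.06 for NF-kappaB genes, 0.24 to 0.30 for the protozoan defense term, 0.02 to 0.10 for related GTPases, -0.03 to 0.03 for prenylation, -0.05 to 0.20 for GBP partners and 0.63 to 0.92 for type I interferon effectors. Quantile normalization gave 0.01 for IRF genes, -0.06 for prenylation and 0.24 for the protozoan defense term, which was 0.16 with no filter. Without both named samples the medians were 0.11 for related GTPases, -0.05 for prenylation, -0.14 for GBP partners and 0.49 for type I interferon effectors. The cause was not tested. No result reversed in a called direction, and no scaling moved the median of all genes by more than 0.1.

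Whether replicate numbers pair the samples was not settled. Same-numbered samples correlated at -0.081, 0.072 and 0.073 in their deviations, and differently numbered samples at -0.141 to 0.067. Deviations within a group sum to 0, so these correlations cannot exclude a pairing. The fit with the replicate block gave a log2 fold change of 1.07 for GBP1 and changed no call among the 6 genes. Depth limited GBP4, GBP6 and GBP7. The interval of the GBP6 ratio covers counting error only, while the intervals of log2 fold changes come from the spread between samples in limma.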
